A study of Homo sapiens with 4 samples.

Results

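The genes described here are 10 genes of the endoplasmic reticulum (ER) stress response: the sensors ERN1 and ATF6, the transcription factor XBP1, the folding genes CALR, PDIA4 and SDF2L1, the ER-associated degradation genes EDEM1, HERPUD1 and SEL1L, and CREBRF, a regulator of the ER-linked transcription factor CREB3. They were picked by symbol from the 28814 genes of the count table, with earlier results of these data known, and all 10 had a row and passed the count filter that left 16862 genes. RNA came from 697 cells, an established human line of B-cell precursor acute lymphoblastic leukaemia. Of 4 libraries, 2 were from cells given MZ1 at 1 µM and 2 from cells given an equal volume of the solvent DMSO, all for 24 h. MZ1 is a degrader that brings BET bromodomain proteins to the VHL ubiquitin ligase. Nothing in the labels tells whether the 2 libraries of a group were separate cultures, so the spread between them may be technical.

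Secreted and membrane proteins fold in the ER, where chaperones hold unfinished chains and disulfide enzymes join their cysteines. When unfolded chains build up, the membrane sensors IRE1 (gene ERN1), ATF6 and PERK (gene EIF2AK3) start the unfolded protein response. IRE1 splices XBP1 mRNA into the form that encodes the active factor, and ATF6 is cut by the proteases of MBTPS1 and MBTPS2 to free its DNA-binding part. Together these factors switch on genes for folding and for ER-associated degradation (ERAD), which carries misfolded proteins out to the proteasome. In the B lineage the pathway is best known from plasma cells, which need XBP1 for antibody secretion. The CREBRF protein binds CREB3 (Luman), a related membrane-bound factor, and promotes its loss. Counts per gene do not tell spliced from unspliced XBP1 mRNA, or cut from uncut ATF6, so what follows is about transcript levels only.

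The genes changed in both directions. CREBRF was 55.5-fold higher with MZ1, the sensors ERN1 and ATF6 and the factor XBP1 were 1.35- to 1.70-fold higher, and the folding genes SDF2L1, CALR and PDIA4 were 5.64-, 2.79- and 2.03-fold lower. Among ERAD genes EDEM1 was 1.51-fold lower, whereas HERPUD1 and SEL1L were 1.14- and 1.09-fold higher. Because the genes were chosen with this contrast known, these values are a description and carry no test of their own. In edgeR's quasi-likelihood fit to the complete set of genes, called at an adjusted p below 0.05, 6 of the 10 were higher and 4 were lower. Of all tested genes 84.2% were called, 42.8% higher and 41.3% lower, and of the protein-coding ones 87.3%. The 2 groups of libraries did not overlap for any of the 10, nor for 91.3% of all tested genes and 93.3% of protein-coding ones. In this 2 against 2 design the lowest two-sided p of an exact permutation test is 0.333. Levels are CPM, counts divided by library size and scaled between libraries with the TMM method, so each is a share of its library and not an amount per cell, and in bulk RNA fewer cells of a kind and less RNA per cell cannot be told apart.

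**Figure D1:**
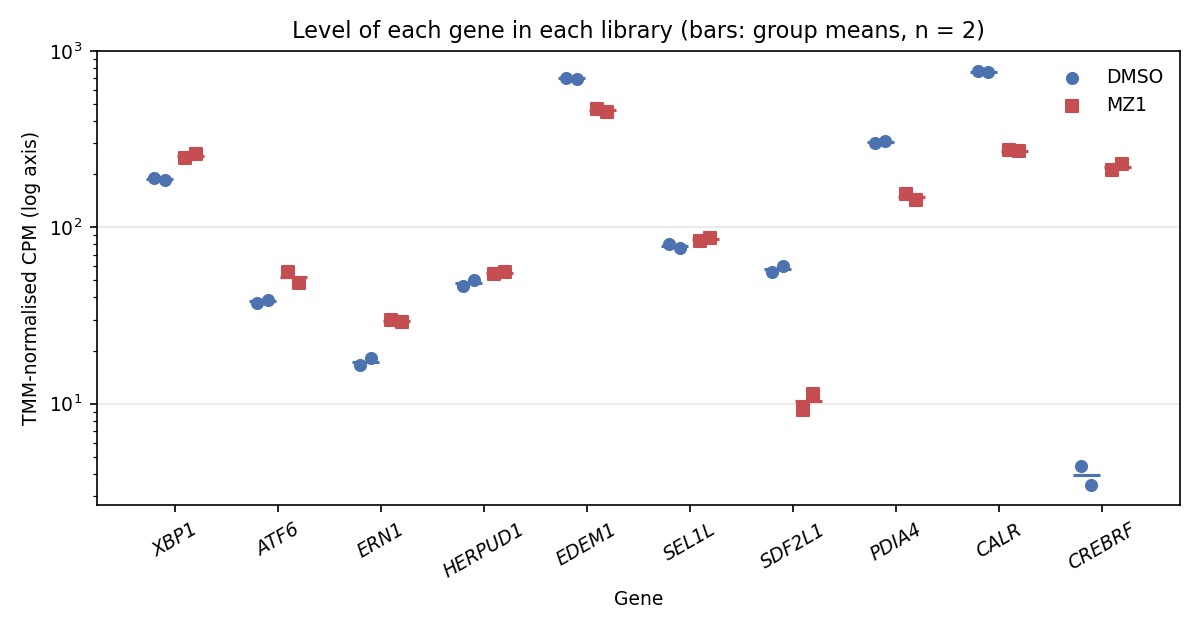
Level of the 10 genes in each library, in TMM-normalised CPM on a log axis, with circles for DMSO, squares for MZ1 and a bar at each group mean (n = 2). CREBRF goes from 3.48 and 4.45 CPM to 210 and 230 CPM, while SDF2L1, PDIA4, CALR and EDEM1 are lower in both MZ1 libraries.

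The libraries held 14246367 to 16488005 counted reads. Mitochondrially encoded genes took 5.48% and 5.82% of the counts with DMSO and 8.98% and 9.26% with MZ1. The labelled cell type was checked against 11 B precursor markers: all had reads in every library, with PAX5 at 819 and 836 CPM with DMSO. All 11 were called lower with MZ1 (median log2 fold change −1.36), and their summed level went from 4094 and 4095 CPM to 1340 and 1375 CPM. For scale, 48.8% of protein-coding genes were called lower and 38.5% higher. Of 12 markers of other blood cells 7 had a row. Their summed level was 17.2 and 18.3 CPM with DMSO and 31.7 and 27.3 CPM with MZ1, with MPO and NCAM1 at 0 in both DMSO libraries. Of the 5 tested, 4 were higher and 1 lower. NKG7, a gene of cytotoxic lymphocytes, was the one that fell, from 16.1 and 17.6 to 3.74 and 2.96 CPM. Without it the sum was 1.10 and 0.707 CPM with DMSO and 27.9 and 24.3 CPM with MZ1. The 4 that rose were the myeloid genes MPO, ITGAM, CD14 and LYZ, at 0 to 0.589 CPM with DMSO and 2.61 to 9.95 CPM with MZ1. LYZ shares 34.0% of its exonic length with a gene on the other strand. The part of these shifts in the results on ER genes was not tested.

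Promoter sequences are shown for the genes that carry known unfolded protein response elements, since these genes moved in opposite directions, and for CREBRF, the gene with the largest change. Windows from 250 bases before to 50 bases after the RefSeq start sites (GRCh38.p14) were found for all 10 genes, and for XBP1 and PDIA4, with 2 windows each, the more upstream one was used. The ER stress element (ERSE), which ATF6 binds together with the CCAAT factor NF-Y, was searched as CCAAT, any 9 bases, then CCACG. ERSE-II was searched as ATTGG, any base, then CCACG, and the UPRE, an XBP1 and ATF6 site, as TGACGTG followed by G or A. Each was searched on both strands, and ERSE and ERSE-II contain a CCAAT box by construction. ERSE was found in the windows of XBP1 and CALR and in 0.0769% of all 35116 windows. ERSE-II was found in those of HERPUD1 and SDF2L1 and in 0.0541% of all windows. No UPRE match was found in the 10 windows, against 1.18% of all windows. The stretches below run 5′ to 3′ on the gene's strand and stop before the most upstream start that RefSeq or GENCODE gives. Capitals mark the ERSE in XBP1 (chr22:28800598-28800819, minus strand) and CALR (chr19:12938359-12938577, plus strand), and the ERSE-II in HERPUD1 (chr16:56931892-56932047, plus strand) and SDF2L1 (chr22:21642052-21642260, plus strand). In CREBRF (chr5:173056102-173056351, plus strand) they mark the E-box CACGTG, the core site of basic helix-loop-helix factors.
XBP1: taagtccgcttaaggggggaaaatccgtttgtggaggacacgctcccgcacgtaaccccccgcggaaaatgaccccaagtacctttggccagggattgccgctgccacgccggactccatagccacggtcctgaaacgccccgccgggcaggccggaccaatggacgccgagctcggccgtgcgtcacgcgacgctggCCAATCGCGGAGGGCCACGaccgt
CALR: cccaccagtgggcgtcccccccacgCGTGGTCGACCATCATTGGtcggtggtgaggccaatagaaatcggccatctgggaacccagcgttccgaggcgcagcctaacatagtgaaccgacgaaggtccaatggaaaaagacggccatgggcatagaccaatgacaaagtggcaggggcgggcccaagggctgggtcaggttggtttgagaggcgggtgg
HERPUD1: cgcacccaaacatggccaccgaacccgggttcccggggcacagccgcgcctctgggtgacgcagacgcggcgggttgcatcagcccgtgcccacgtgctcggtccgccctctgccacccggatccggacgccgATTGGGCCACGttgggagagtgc
SDF2L1: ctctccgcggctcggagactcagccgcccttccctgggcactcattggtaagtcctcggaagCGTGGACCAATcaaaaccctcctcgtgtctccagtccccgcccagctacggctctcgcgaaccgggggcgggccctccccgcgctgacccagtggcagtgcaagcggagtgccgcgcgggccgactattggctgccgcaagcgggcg
CREBRF: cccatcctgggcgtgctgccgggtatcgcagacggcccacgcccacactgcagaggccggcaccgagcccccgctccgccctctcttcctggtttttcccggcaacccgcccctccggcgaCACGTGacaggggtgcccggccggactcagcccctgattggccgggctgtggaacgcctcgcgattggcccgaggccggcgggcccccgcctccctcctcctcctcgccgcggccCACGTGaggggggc

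With the start site at 0, the ERSE of XBP1 lay at −52 to −34 and that of CALR at −225 to −207, on the opposite strand. The ERSE-II of HERPUD1 lay at −117 to −107 and that of SDF2L1 at −188 to −178, also on the opposite strand. So of 4 genes with an element in this window, XBP1 and HERPUD1 were higher and CALR and SDF2L1 lower, the HERPUD1 call being lost in 5 of 12 alternatives. CREBRF held neither element but 2 E-boxes, at −129 to −124 and −14 to −9. The E-box was added to the search after the sequences had been seen. It was present in 7.26% of all windows and at least 2 times in 0.664%. HERPUD1 also held 1 E-box. Over the pathway lists described below, 130 genes had a window. ERSE was found in 6 of them, of which 2 were called higher (XBP1 and ERO1B) and 4 lower (CALR, CRELD2, HSP90B1 and HSPA5). ERSE-II was found in 3, of which HERPUD1 was called higher and HYOU1 and SDF2L1 lower. UPRE was found in 12 (9.23%), of which 2 were called higher and 9 lower. The E-box was found in 19 (14.6%), of which 7 were called higher and 10 lower. Protein-coding genes at large were called higher in 38.5% of cases and lower in 48.8%. A match describes letters in the window and does not show binding.

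**Figure D2:**
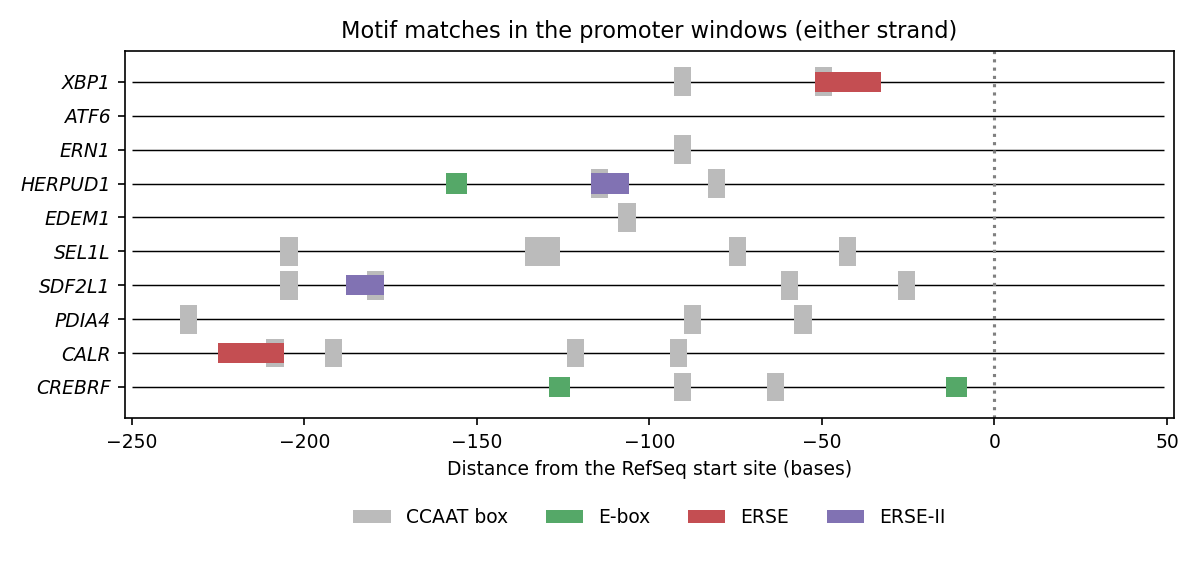
Motif matches on either strand in the promoter windows of the 10 genes, with the distance from the RefSeq start site in bases on the x axis and 1 line per gene. ERSE (red) is seen in XBP1 and CALR, ERSE-II (purple) in HERPUD1 and SDF2L1, and 2 E-boxes (green) in CREBRF, while grey marks any CCAAT box.

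Of the sensor genes, ERN1 and ATF6 were higher with MZ1. ERN1 (ENSG00000178607; chromosome 17, 64039142 to 64130819, GRCh38) encodes IRE1, the kinase and RNase that splices XBP1. It was at 16.5 and 18.1 CPM in the DMSO libraries and at 29.9 and 28.9 CPM in the MZ1 libraries. The MZ1 values lay clear of the DMSO values, with a log2 fold change of 0.76 ± 0.10 (SE, n = 2 per group). ATF6 (ENSG00000118217; chromosome 1, 161766294 to 161964070) was at 37.4 and 38.5 CPM with DMSO and at 56.0 and 48.5 CPM with MZ1, a log2 fold change of 0.46 ± 0.08. Its MZ1 libraries differed more from each other than its DMSO libraries did, but both were above them. Of 9 sensor and activation genes 8 were tested, with 3 called higher and 4 lower (median log2 fold change −0.10, against 0.05 for all tested genes and −0.20 for protein-coding ones). With upper-quartile scaling, which raised all log2 fold changes by a median of 0.27, the split was 5 higher and 2 lower. Without ERN1 and ATF6, 1 was called higher and 4 lower of 6 tested, and 3 higher and 2 lower with upper-quartile scaling. In the main fit, 38.5% of protein-coding genes were called higher and 48.8% lower. ATF6B, the paralog of ATF6, fell from 92.8 and 91.7 to 24.2 and 23.9 CPM, or 3.83-fold. MBTPS2, the site-2 protease that releases ATF6 from the membrane, fell from 21.5 and 21.6 to 2.47 and 4.33 CPM, or 6.34-fold. Other genes cover 9.92% of the exonic length of ATF6B, 13.4% of that of MBTPS2 and 15.1% of that of EIF2AK3. MBTPS1, the site-1 protease, was called lower by 0.14 ± 0.05 on the log2 scale, but was higher by 0.13 with upper-quartile scaling. EIF2AK3, which encodes PERK, was at 31.1 and 31.2 CPM with DMSO and 29.9 and 29.7 CPM with MZ1. Its difference did not pass edgeR's test (adjusted p = 0.502), but upper-quartile scaling gave a call of 0.21 in the other direction (edgeR adjusted p = 0.0293).

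XBP1 (ENSG00000100219; chromosome 22, 28794555 to 28800597), the factor downstream of IRE1, was at 190 and 186 CPM with DMSO and at 246 and 260 CPM with MZ1. Both MZ1 libraries were above both DMSO libraries, with a log2 fold change of 0.43 ± 0.05. Plasma cell markers, whose expression accompanies XBP1 in antibody-secreting cells, did not share 1 direction: of 6 tested 2 were called higher and 4 lower. This split was near that of protein-coding genes at large, with 38.5% called higher and 48.8% lower. JCHAIN, the joining chain of polymeric antibodies, was at 258 and 226 CPM with DMSO and 4.80 and 4.69 CPM with MZ1. MZB1, an ER cochaperone of antibody assembly, went from 124 and 139 to 5.57 and 6.13 CPM. IRF4, a transcription factor of plasma cells, went from 74.5 and 71.1 to 1005 and 969 CPM. The summed level of the marker list was 493 to 508 CPM with DMSO and 994 to 1035 CPM with MZ1, with SDC1 at 0 in both DMSO libraries. Without IRF4 the sum was lower with MZ1, at 433 and 422 CPM with DMSO and 29.5 and 24.9 CPM with MZ1. The part of these shifts in the XBP1 level was not tested.

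The folding genes CALR, PDIA4 and SDF2L1 were lower. CALR (ENSG00000179218; chromosome 19, 12938578 to 12944489) encodes calreticulin, the lectin chaperone of new glycoproteins. It was at 764 and 757 CPM with DMSO and at 274 and 270 CPM with MZ1, a log2 fold change of −1.48 ± 0.04. PDIA4 (ENSG00000155660; chromosome 7, 149003062 to 149028641), a protein disulfide isomerase, was at 299 and 307 CPM with DMSO and at 154 and 143 CPM with MZ1 (−1.02 ± 0.05). SDF2L1 (ENSG00000128228; chromosome 22, 21642261 to 21644298), which keeps client proteins of the chaperone BiP from clumping, was at 55.9 and 60.6 CPM with DMSO and at 9.24 and 11.4 CPM with MZ1 (−2.50 ± 0.10). The replicates lay close together in each group, and the gap between groups was many times their spread. An antisense gene covers 9.95% of CALR's exonic length, and the strand setting of the counting is not known. The summed level of the 3 genes was 1119 and 1124 CPM with DMSO and 438 and 425 CPM with MZ1.

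The wider folding lists moved mostly the same way. Of 17 lumenal chaperones and cochaperones 16 were tested (UGGT2 was not analysed here), with 11 called lower and 3 higher (median log2 fold change −0.63). Without CALR and SDF2L1 the counts were 9 lower and 3 higher of 14 (median −0.41). Of all protein-coding genes 48.8% were called lower and 38.5% higher. HSPA5, which encodes the main ER chaperone BiP, fell from 572 and 579 to 280 and 273 CPM, or 2.08-fold. HSP90B1, the ER form of HSP90, fell 1.93-fold, and HYOU1, a nucleotide exchange factor of BiP, 1.94-fold. CANX, the membrane-bound relative of calreticulin, fell 1.30-fold. DNAJC10, a reductase that works with BiP, fell 3.22-fold. The exceptions were DNAJC1, DNAJC3 and SDF2. SDF2, the paralog of SDF2L1, rose from 17.7 and 14.2 to 32.7 and 33.2 CPM, and DNAJC3, a BiP cochaperone, rose 1.44-fold. Genes on the other strand cover 15.8% of the exonic length of SDF2. DNAJB9, a J-domain protein that holds IRE1 inactive and is a known XBP1 target, was at 9.33 and 8.19 CPM with DMSO and 8.26 and 9.23 CPM with MZ1, so the groups overlapped (edgeR adjusted p = 0.994).

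Of 16 disulfide bond enzymes 11 were called lower and 4 higher (median −0.66), or 10 and 4 of 15 without PDIA4 (median −0.29). The shares over protein-coding genes were 48.8% lower and 38.5% higher. With upper-quartile scaling the disulfide list had 8 lower and 5 higher. Over all tested genes that setting gave 5880 lower and 8304 higher, against 6969 and 7222 in the main fit. PRDX4, the ER peroxiredoxin, fell from 54.5 and 60.9 to 4.16 and 4.11 CPM, or 13.9-fold. PDIA6 fell 2.86-fold and PDIA3, the partner of calreticulin and calnexin, 2.66-fold, and genes on the other strand cover 25.2% and 18.9% of their exonic lengths. ERO1B, an oxidase that recharges the isomerases, went the other way and rose from 28.3 and 31.6 to 94.8 and 92.9 CPM, or 3.13-fold. The summed level of the chaperone list was 3367 and 3376 CPM with DMSO and 1891 and 1874 CPM with MZ1, and that of the disulfide list 1774 CPM in each DMSO library and 1175 and 1169 CPM with MZ1.

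The ERAD genes did not move together. EDEM1 (ENSG00000134109; chromosome 3, 5187646 to 5219957), which marks misfolded glycoproteins for disposal by trimming mannose, was at 702 and 693 CPM with DMSO and at 469 and 452 CPM with MZ1. Both MZ1 libraries were lower, with a log2 fold change of −0.60 ± 0.04, and an antisense gene covers 9.66% of its exonic length. HERPUD1 (ENSG00000051108; chromosome 16, 56932048 to 56944863), a membrane protein that assembles the degradation complex, was at 46.3 and 50.5 CPM with DMSO and at 54.4 and 55.7 CPM with MZ1. SEL1L (ENSG00000071537; chromosome 14, 81471549 to 81533861), the scaffold of the SYVN1 ubiquitin ligase, was at 80.5 and 75.9 CPM with DMSO and at 84.1 and 86.5 CPM with MZ1. For these genes the gap between groups was smaller than the spread within DMSO, with log2 fold changes of 0.19 ± 0.07 and 0.13 ± 0.06. HERPUD1 was not called without DMSO replicate 1 (0.08) or MZ1 replicate 2 (0.17). SEL1L was not called without DMSO replicate 1 (0.12), DMSO replicate 2 (0.05) or MZ1 replicate 2 (0.11), nor with the replicate number as a block (0.13).

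Over the 27 ERAD genes 13 were called higher and 12 lower (median 0.13). Protein-coding genes at large were also split, with 38.5% called higher and 48.8% lower (median −0.20). The summed level of the ERAD list was 3236 and 3209 CPM with DMSO and 3251 and 3198 CPM with MZ1. OS9, a lectin that delivers glycoproteins to SEL1L, rose from 68.4 and 67.4 to 226 and 223 CPM, or 3.31-fold. HERPUD2, the paralog of HERPUD1, rose from 18.4 and 18.1 to 70.6 and 67.3 CPM, or 3.77-fold. UFD1, a cofactor of the extracting ATPase VCP, rose 2.68-fold, while VCP itself fell 1.34-fold, from 425 and 413 to 313 and 313 CPM. SYVN1, the ligase bound by SEL1L, rose 1.18-fold, from 181 and 187 to 222 and 213 CPM. Those that fell included the ubiquitin-conjugating enzymes UBE2J1 (2.84-fold) and UBE2G2 (1.46-fold), and AUP1 (1.70-fold), which recruits UBE2G2. UBE2J2, another such enzyme, rose 1.24-fold, from 73.6 and 71.6 to 94.3 and 84.9 CPM. Other genes cover 18.3% of the exonic length of AUP1, 13.5% of that of OS9 and 10.1% of that of SYVN1. VCP and UBE2J2 are named outside the rule, after their values had been seen.

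**Figure D3:**
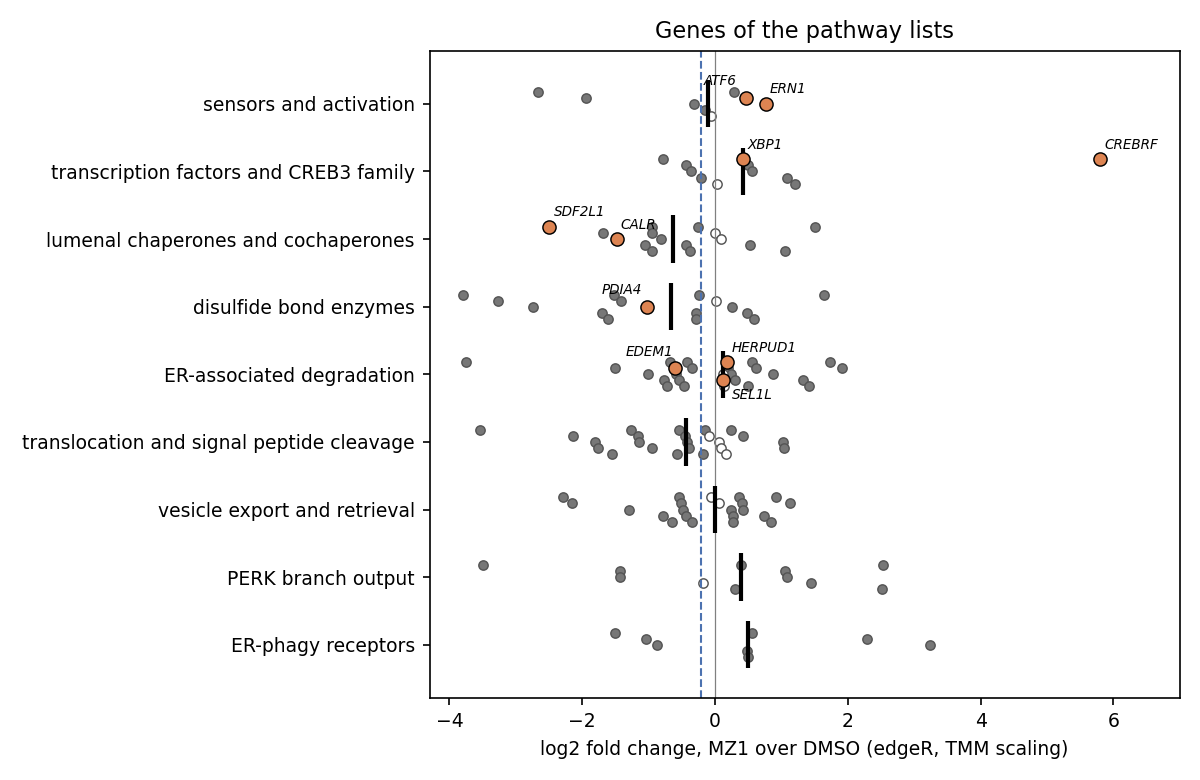
Log2 fold change (MZ1 over DMSO) of each tested gene in the 9 pathway lists, with the 10 genes of this account in orange, other called genes in grey, genes not called in white, a black bar at each list's median and a dashed line at the protein-coding median of −0.20. The chaperone, disulfide and translocation lists have medians left of that line, the ERAD list spreads on both sides, and CREBRF stands far to the right.

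CREBRF (ENSG00000164463; chromosome 5, 173056352 to 173139284) was at 4.45 and 3.48 CPM in the DMSO libraries, from 73 and 59 reads, and at 210 and 230 CPM in the MZ1 libraries, from 2981 and 3185 reads. The log2 fold change was 5.80 ± 0.09, with values from 5.59 to 6.07 over 12 other settings. No other gene covers any of its exonic length. Its log2 fold change ranked 522 from the top of the 16862 tested genes. Among protein-coding genes 268, CREBRF included, had a log2 fold change at least as high, and 16 of these also reached its mean level of 220 CPM with MZ1. Most of those 16 were histone genes. The nearest tested genes on either side differed in direction. ATP6V0E1, 20.9 kb before it, rose 1.56-fold, and BNIP1, 5.16 kb after it, fell 5.87-fold. Per kilobase of exon, CREBRF moved from percentile 15.96 of tested genes with DMSO to percentile 86.5 with MZ1.

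CREB3, the partner that CREBRF binds, rose as well. It was at 18.7 and 17.4 CPM with DMSO and at 34.6 and 41.9 CPM with MZ1, or 2.12-fold higher, with other-strand genes covering 10.5% of its exonic length. CREBZF, listed here with the CREB3 relatives, rose from 149 and 158 to 363 and 344 CPM, or 2.30-fold. CREB3L2, a paralog of CREB3, was called lower, from 36.9 and 39.3 to 26.2 and 29.9 CPM, but was not called with upper-quartile scaling (−0.17, edgeR adjusted p = 0.0806). Of the list of 13 transcription factors and CREB3 relatives, 11 were tested, with 6 higher and 4 lower, or 6 higher and 2 lower with upper-quartile scaling. Without XBP1 and CREBRF the list had 4 higher and 4 lower. In the main fit protein-coding genes were called higher in 38.5% of cases and lower in 48.8%. In the NF-Y complex, which binds the CCAAT box of ERSE, NFYA rose 1.47-fold and NFYC fell 1.71-fold. NFYB was called lower by 0.20 on the log2 scale, but its change was 0.07 with upper-quartile scaling.

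Levels of different genes were compared only per kilobase of exonic length. With DMSO the order was CALR (280 CPM per kb), EDEM1 (103), PDIA4 (92.4), XBP1 (62.1), SDF2L1 (53.0), HERPUD1 (9.39), SEL1L (8.18), ATF6 (4.81), ERN1 (1.59) and CREBRF (0.32). No neighbours in that order overlapped between libraries. With MZ1 the order was CALR (100.3 CPM per kb), XBP1 (83.5), EDEM1 (68.2), PDIA4 (45.4), CREBRF (17.8), HERPUD1 (10.7), SDF2L1 (9.39), SEL1L (8.93), ATF6 (6.62) and ERN1 (2.70). There SDF2L1 and SEL1L overlapped. XBP1 thus passed EDEM1 and PDIA4, SDF2L1 dropped below HERPUD1, and CREBRF went from the last place to the fifth. The summed level of the 10 genes went from 2197 and 2190 CPM to 1587 CPM in each MZ1 library.

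Genes of the PERK branch were mixed. EIF2AK3 is described above, and ATF4, the factor made when PERK slows translation, fell from 458 and 468 to 364 and 356 CPM, or 1.29-fold. DDIT3 (CHOP), its target, was at 5.98 and 7.42 CPM with DMSO and 5.65 and 8.08 CPM with MZ1 and was not called (edgeR adjusted p = 0.884), with other genes covering 39.6% of its exonic length. Of 12 output genes of this branch 11 were tested, with 7 called higher and 3 lower (median 0.40). The shares over protein-coding genes were 38.5% higher and 48.8% lower. PPP1R15A, which ends the translation block, rose from 23.0 and 27.3 to 141 and 146 CPM, or 5.69-fold, and PPP1R15B, its constitutive relative, rose 2.08-fold. CHAC1, which breaks down glutathione, fell from 4.45 and 3.77 to 0.49 and 0.22 CPM, and CEBPG, a dimer partner of ATF4, fell 2.69-fold.

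Genes of entry into the ER were mostly called lower, as in the folding lists, while genes of exit from it followed no single direction. Of 24 translocation and signal peptide genes 16 were called lower and 4 higher (median −0.44), or 12 lower and 8 higher with upper-quartile scaling. The shares over protein-coding genes, in the main fit, were 48.8% lower and 38.5% higher. Upper-quartile scaling also moved the calls over all tested genes, from 6969 lower and 7222 higher to 5880 lower and 8304 higher. SRPRB, a subunit of the signal recognition particle receptor, fell from 43.8 and 41.8 to 4.59 and 2.74 CPM, or 11.6-fold, with 21.1% of its exonic length in other genes. SRP72 and SRP9 of that particle fell 3.52- and 2.92-fold. SEC11A, a catalytic subunit of signal peptidase, rose 2.03-fold, and SEC61A2, a translocon paralog, 2.05-fold. Of 22 vesicle export and retrieval genes 10 were higher and 10 lower (median 0.00). LMAN1, a cargo receptor for glycoproteins, fell from 110 CPM in each DMSO library to 19.9 and 25.3 CPM, or 4.88-fold, and the coat subunit gene SEC13 fell 2.46-fold. SEC24B, a cargo-binding coat subunit, rose 2.19-fold and SEC16A, which organises exit sites, 1.90-fold. Of 8 ER-phagy receptors, which feed pieces of ER to the lysosome, 5 were higher and 3 lower (median 0.49). CALCOCO1 rose from 12.0 and 13.6 CPM to 121 CPM in each MZ1 library, or 9.44-fold, and RETREG3 rose 4.90-fold, while its paralog RETREG1 (FAM134B) fell 2.84-fold.

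**Figure D4:**
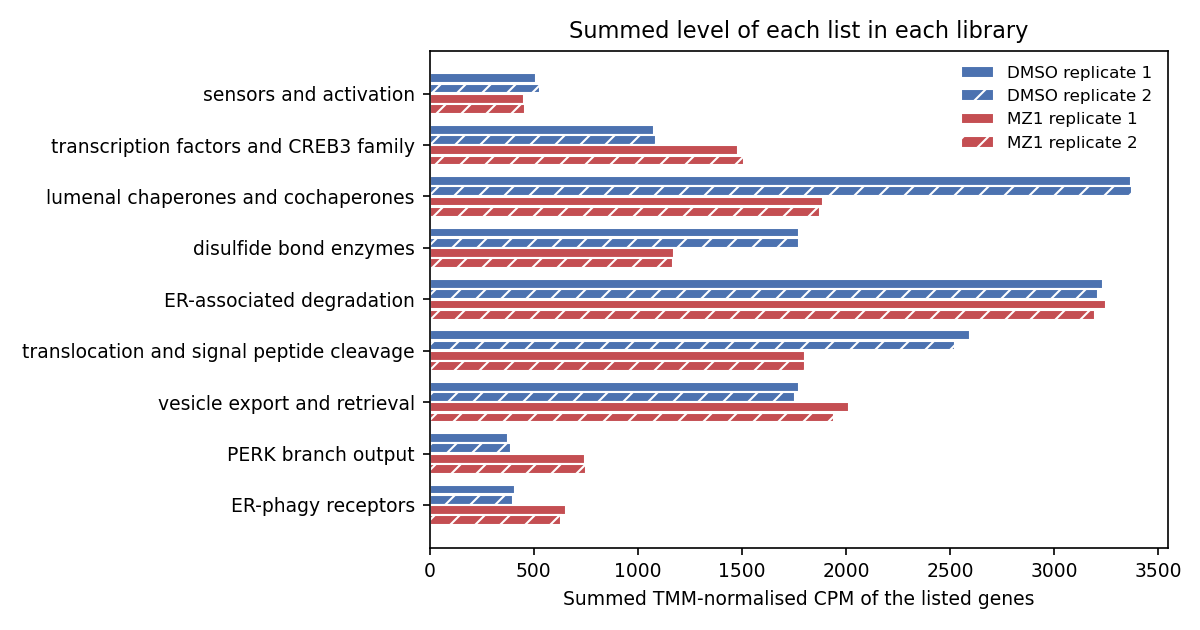
Summed TMM-normalised CPM of each pathway list in each library, with 2 bars for DMSO (blue) and 2 for MZ1 (red), hatched for replicate 2. The chaperone, disulfide and translocation sums are lower with MZ1, the ERAD sum is at 3198 to 3251 CPM in all 4 libraries, and the PERK output and ER-phagy sums are higher.

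Over all 9 lists, 143 of 148 genes were tested, with 74 called lower and 55 higher (median −0.19). This was close to the protein-coding genes at large, with 48.8% called lower and 38.5% higher (median −0.20). With upper-quartile scaling the lists had 59 lower and 67 higher. That setting put 53.2% of the called list genes higher, against 58.5% of all called genes, coding or not. In the main fit these shares were 42.6% and 50.9%. The share over protein-coding genes alone is not given here for upper-quartile scaling. The 20 nearest tested neighbours of the 10 genes on the chromosome were lower in 11 cases and higher in 6, and 3 were not called. Over all tested genes 41.3% were called lower and 42.8% higher, so a shared or opposite direction of neighbours is common. FARSA, 4.54 kb from CALR, fell 3.85-fold and so moved in the same direction as CALR. DUSP12, 9.06 kb before ATF6, fell 3.96-fold while ATF6 was higher, and CCDC117, 5.25 kb from XBP1, rose 1.92-fold.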

How the data were processed

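RNA-seq of 4 libraries of 697 cells, 2 with DMSO and 2 with MZ1, was used. The authors deposited raw read counts for each gene (Ensembl IDs), as whole numbers, per the file headers. Per the labels' protocols, RNA was taken with TRIzol and libraries were made with a TruSeq kit. Per the submitters' processing notes, HISAT2 2.2.0 and hg38 were used. How reads were counted, with which annotation and whether by strand, is not given in the sources used here. Reads of overlapping genes on either strand therefore cannot be told apart. Groups came from sample titles.

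Tests used edgeR 4.0.16 (R 4.3.3): filterByExpr, TMM scaling, glmQLFit and glmQLFTest with treatment as the only term, and Benjamini-Hochberg adjustment over 16862 genes, called at an adjusted p below 0.05. Standard errors came from the coefficient and the F statistic. The fit was tested on simulated counts, in which 46 to 48 genes were changed by each known fold. It recovered 47.9% of changes of 1.25-fold, 61.7% of 1.5-fold, 82.6% of 2-fold and 100% of 4-fold, with 4 false calls. Far fewer genes changed there than in the data, so this test cannot judge the scaling used here. Alternatives were other scalings and count filters (a stricter one of 50 counts in every library of a group), DESeq2 1.42.0, limma-voom (limma 3.58.1), a replicate block and leaving out each library. Positions, exonic lengths and shared exonic length came from GENCODE 29, in which all 28814 IDs were found, and symbols from a name table (28597 IDs).

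The 10 genes, the pathway lists and the tests were chosen with earlier results of these data known. Named genes are the 10, 12 further genes always named, in each list up to 4 others a direction by smallest adjusted p, and the nearest tested genes on each side. Marker genes come from fixed lists. A few genes that these rules cover are not reported here. A planned count of proteins with an ER retrieval signal was not run, as no protein table was used here.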

Additional observations from a re-analysis of the deposited data

How the results depend on the processing

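Calls of CREBRF, XBP1, ERN1, ATF6, CALR, PDIA4, SDF2L1 and EDEM1 kept their direction and their side of the threshold under all 12 alternatives. HERPUD1 lost its call with library totals alone (0.11), with no count filter (0.11) and in DESeq2 (0.21), and its log2 fold change ran from 0.079 to 0.21 when each library was left out. SEL1L lost its call with library totals alone (0.050), with no count filter (0.050), in DESeq2 (0.16) and with the replicate block (0.13), and ran from 0.046 to 0.15 when each library was left out. Upper-quartile scaling gave 5 sensor genes higher and 2 lower, 2 transcription factor genes lower and 8 translocation genes higher, and the stricter count filter gave 7 translocation genes higher. Upper-quartile scaling turned the sign for EIF2AK3 (0.21), MBTPS1 (0.13) and NFYB (0.068), and the stricter filter that for MBTPS1 (0.025). These 2 settings shifted log2 fold changes by a median of 0.27 and 0.17; the cause of the other changes was not tested. Over 103 named genes, 1193 of 1226 values kept direction and call, 29 lost the call and 4 changed sign.

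Replicate numbers are shared between groups, and the labels do not tell whether they mark pairs. The deviations of same-numbered libraries correlated at 0.014. With 2 libraries per group this value cannot decide the question. The main fit did not take the numbers as pairs. With the replicate block 7107 genes were higher and 6856 lower, against 7222 and 6969 without it. Using the longest transcript as the length changed values per kilobase but not the order of the 10 genes in either group. A fit that leaves out a library assumes that the lone library of its group varies like the other group. Depth limits genes with few reads, such as CHAC1 with 7 and 3 reads with MZ1. CREBRF had 73 and 59 reads with DMSO.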
